A study of Mus musculus with 4 samples.

Results

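Androgen and glucocorticoid response genes were examined here as 8 genes of hormone signalling, namely Nr3c1, Vdr, Esr1, Hsd11b1, Srd5a1, Srd5a3, Fkbp5 and Tsc22d3. They were taken by gene name from the deposited count table. All 8 were found among its 51826 genes, and all 8 were among the 16734 genes with a mean of at least 10 counts that were compared. The study asked how serial culture alters mesenchymal cells of the mouse hair follicle that home to follicles after injection. Dermal papilla cells (DPCs), from the cell cluster at the base of the hair bulb, and dermal sheath cells (DSCs), from the connective tissue sheath around the follicle, were each sequenced at passage 3 (low passage) and at passage 9 (high passage). Each of the 4 groups is 1 library, so no value below has a replicate check, and an interval beside a fold change covers counting error only.

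The cells were grown out of whisker follicles of EGFP-transgenic C57BL/6J mice aged 5 to 6 weeks, and the labels give the genotype of all 4 groups as WT. All groups were cultured in DMEM with fetal bovine serum, and the labels name no hormone or other agent for any of them. How many animals or cultures stand behind a library was not given in the sources used here. An effect of passage cannot be told apart from any difference in when the libraries were made.

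Steroid hormones act through nuclear receptors, which bind the hormone in the cytoplasm or nucleus and then bind DNA near their target genes. What reaches a receptor is set within the cell by enzymes that convert steroids, and how well the receptor binds is tuned by chaperones of the HSP90 complex. In the follicle the dermal papilla is the classic androgen target, and glucocorticoids, oestrogens and vitamin D are each known to alter the hair cycle.

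Libraries held between 34981284 and 47604059 counts, and the values were scaled to CPM, the counts of a gene relative to the scaled library total, with TMM factors between 0.957 and 1.04. The labelled cell types were checked against marker genes. Summed fibroblast markers were abundant, at 17300 CPM at passage 3 and 6400 at passage 9 in DPCs and at 25400 and 22800 CPM in DSCs, and summed dermal sheath markers were 9440 and 3490 CPM in DPCs against 7480 and 6520 in DSCs. Summed papilla markers were 881 and 592 CPM in DPCs and 501 and 861 in DSCs. Both the papilla and the sheath sum were higher in DPCs at passage 3 and higher in DSCs at passage 9. The sheath sum at passage 3 and the papilla sum at passage 9 thus went against the labels. Wif1 was at 0 in every library. Keratinocyte markers summed to 2.07 CPM or less with Krt5, Krt14, Krt15 and Cdh1 at 0 throughout. Summed immune markers were lower at passage 9 than at passage 3, from 117 to 64.4 CPM in DPCs and from 168 to 93.8 in DSCs, with Cd3e at 0. Melanocyte markers went from 11.2 to 28.3 CPM in DPCs and were 12.3 and 13.0 in DSCs, with Dct, Tyr, Tyrp1 and Mlana at 0. Endothelial markers went from 2.42 to 0.112 CPM in DPCs and from 5.65 to 1.08 in DSCs, and Schwann cell markers from 9.84 to 6.36 and from 19.4 to 10.7. Adipocyte markers stayed at 2.48 CPM or less, with Adipoq, Plin1, Cidec and Lep at 0. The part of these other cell types in the results below was not tested. In bulk RNA of this kind, fewer cells of a type and less RNA per cell cannot be told apart.

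On the FPKM scale, which accounts for transcript length and allows genes to be set side by side, the 8 genes spanned a wide range of levels. In low-passage DPCs, Fkbp5 came first at 17.4 FPKM, followed by Srd5a3 at 17.1, Tsc22d3 at 15.3, Nr3c1 at 13.2, Vdr at 11.3, Hsd11b1 at 7.66, Srd5a1 at 2.43 and Esr1 at 0.0691. In high-passage DPCs the order opened with Hsd11b1 at 49.1 FPKM and Nr3c1 at 18.6, and Fkbp5 stood in sixth place at 3.37. In low-passage DSCs Nr3c1 came first at 21.7 FPKM, and in high-passage DSCs Srd5a3 at 16.9 FPKM was followed by Hsd11b1 at 14.6 and Nr3c1 at 11.5. Srd5a1 and Esr1 were the lowest of the 8 in every library. With 1 library per group, neighbours in these orders cannot be said to differ.

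**Figure D1:**
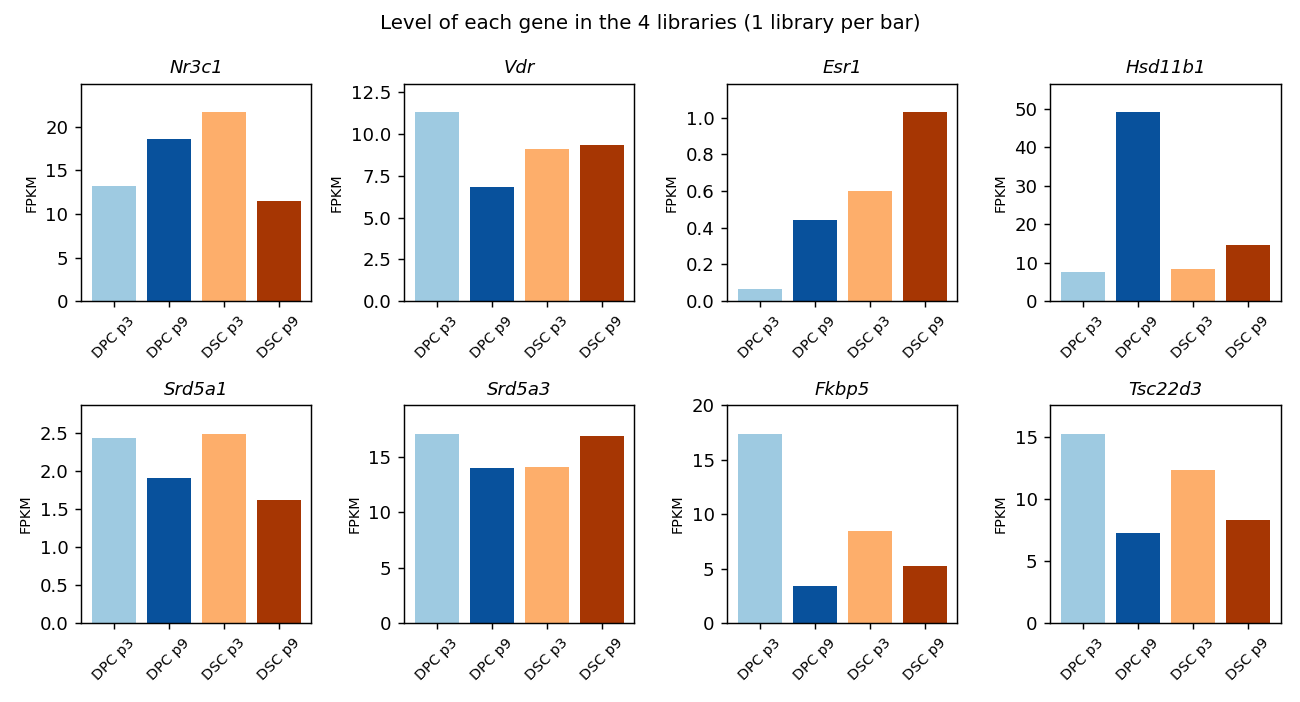
Level in FPKM (y axis, from 0, a separate scale for each gene) of the 8 genes in the 4 libraries; each bar is 1 library, with no error bar because there are no replicates (p3 and p9, passages 3 and 9). Hsd11b1 stood highest in high-passage DPCs at 49.1 FPKM, while Fkbp5 stood at 17.4 FPKM in low-passage and 3.37 FPKM in high-passage DPCs.

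The largest passage differences lay in DPCs. There, 2 of the 8 genes were at least 4-fold higher at passage 9, Esr1 and Hsd11b1, against 5.58% of all genes compared, and 1 was at least 4-fold lower, Fkbp5, against 4.36%. From FPKM with a pseudocount of 0.1 or 1, Esr1 was no longer past 4-fold. At a 2-fold limit the higher set stayed at these 2 genes, against 16.1% of all genes. Tsc22d3 joined Fkbp5 in the lower set, against 15.0%. From FPKM with a pseudocount of 1, Esr1 at 0.43 and Tsc22d3 at -0.97 on the log2 scale were under 2-fold. In DSCs 0 of the 8 genes passed 4-fold in either direction, against 3.82% of all genes, and 0 passed 2-fold, against 14.8%. The median change over all genes compared was 0.0278 on the log2 scale in DPCs and 0.003074 in DSCs.

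**Figure D2:**
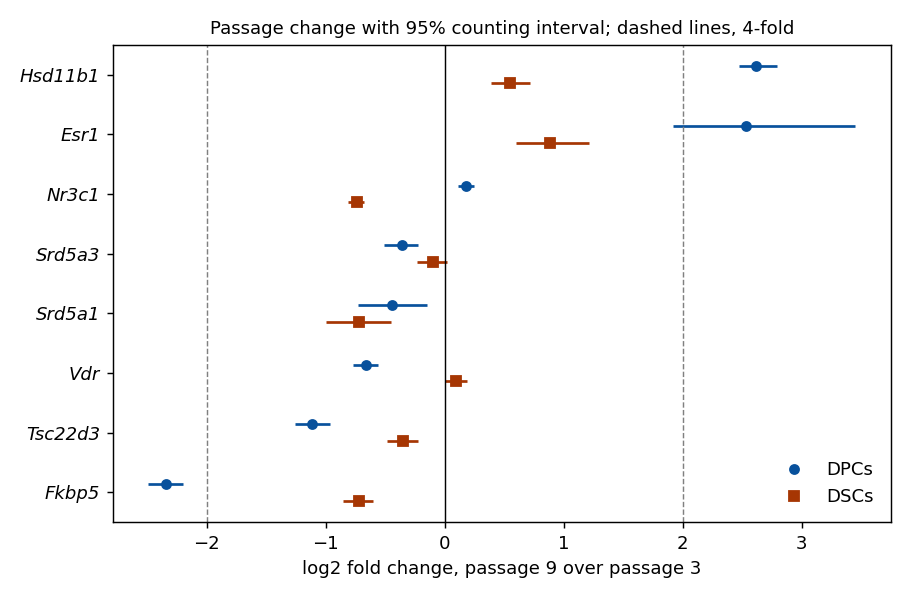
Log2 fold change in CPM of passage 9 over passage 3 (x axis) for the 8 genes in DPCs (blue circles) and DSCs (brown squares), with horizontal lines for the 95% counting interval and dashed lines at 4-fold. In DPCs Hsd11b1 at 2.62, Esr1 at 2.53 and Fkbp5 at -2.34 lie beyond the dashed lines, and no DSC value does.

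Among the receptors, Nr3c1 encodes the glucocorticoid receptor (ENSMUSG00000024431, chromosome 18, positions 39410545 to 39491301, minus strand, GRCm38). It was the most abundant member by count, with 3160 counts at passage 3 and 3498 at passage 9 in DPCs, and 4555 and 3270 in DSCs. Scaled for depth, low-passage DSCs stood highest at 120 CPM and the other 3 libraries lay between 71.8 and 97.5 CPM. On the log2 CPM scale it was 0.18 higher at passage 9 in DPCs (95% counting interval 0.11 to 0.25) and 0.74 lower in DSCs (log2 fold change -0.74, interval -0.81 to -0.68). The same DPC difference taken from FPKM with a pseudocount of 0.1 was 0.49. DPCs were below DSCs at passage 3, with a log2 ratio of -0.48, and above them at passage 9, with 0.44, or 0.69 from the same FPKM scale. All 4 differences stayed under 2-fold.

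Vdr, the vitamin D receptor, is known for its need in the postnatal hair cycle (ENSMUSG00000022479, chromosome 15, positions 97854425 to 97910630, minus strand). DPCs held 1838 counts at passage 3 and 1130 at passage 9, while DSCs held 1638 and 2103. Scaled for depth, high-passage DPCs stood lowest at 31.5 CPM, below 43.2 CPM or more in the other 3 libraries. On the log2 CPM scale Vdr was 0.66 lower at passage 9 in DPCs (log2 fold change -0.66, counting interval -0.77 to -0.56, 1.59-fold). In DSCs the log2 fold change was 0.10, with an interval of 0.00 to 0.19, which became -0.04 to 0.23 when the counts were halved to allow for counting of both mates of a read pair. DPCs were 0.21 above DSCs on the log2 CPM scale at passage 3, or 0.32 from FPKM with a pseudocount of 0.1, and below them at passage 9, with a log2 ratio of -0.55.

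Esr1 encodes oestrogen receptor alpha (ENSMUSG00000019768, chromosome 10, positions 4611593 to 5005614, plus strand). It had 18 counts at passage 3 and 110 at passage 9 in DPCs, and 131 at passage 3 and 294 at passage 9 in DSCs. The low-passage DPC library stood at 0.489 CPM, far below the 3.07 to 6.46 CPM of the other 3, and in both cell types the passage 9 library held more. The log2 fold change in DPCs was 2.53 (interval 1.92 to 3.45, which reaches below 4-fold), or 5.77-fold, and in DSCs it was 0.89 (interval 0.60 to 1.21, 1.85-fold). With so few counts the DPC value depended on the scale, since FPKM with a pseudocount of 0.1 gave 1.68 and with a pseudocount of 1 gave 0.43, both below 4-fold, while FPKM without a pseudocount gave 2.68. The DSC value was 0.34 from FPKM with a pseudocount of 1. Its levels remained low on the FPKM scale, between 0.0691 and 1.03.

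The remaining receptors of steroids and vitamin D set these values in context. Of 10 listed, 9 had enough counts to be compared. In DPCs 2 of them passed 4-fold upwards, Esr1 and Gper1, against 5.58% of all genes, and 0 downwards, against 4.36%. Esr1 was no longer past 4-fold from FPKM with a pseudocount of 0.1 or 1. The median log2 fold change in DPCs was 0.25, or 0.22 without Pgr, whose counts were at the detection floor. In DSCs 1 passed upwards, Pgr, against 3.82% of all genes in either direction, and the median was 0.21. Pgr entered the comparison only through high-passage DSCs, where it was high, so its call in DSCs followed from the count minimum. Nr3c2, the mineralocorticoid receptor, had log2 fold changes of 1.51 in DPCs and 0.71 in DSCs.

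Gper1, a membrane oestrogen receptor, went in opposite directions, with 47 counts at passage 3 and 1016 at passage 9 in DPCs (log2 fold change 4.42) and 64 and 18 in DSCs (-1.96). Pgr, the progesterone receptor, had 0 counts at passage 3 and 3 at passage 9 in DPCs and 0 and 268 in DSCs, which makes it at least 74.3-fold higher at passage 9 in DSCs against a floor of 3 counts, a bound that depends on this floor. Its 95% counting interval in DSCs began lower, at a log2 fold change of 5.91. Esr2, the second oestrogen receptor, had log2 fold changes of 0.25 in DPCs and 1.88 in DSCs. The retinoid X receptors, which pair with Vdr on DNA, were nearly level, with log2 fold changes for Rxra of -0.16 in DPCs and 0.21 in DSCs and for Rxrb of -0.11 and -0.16. Rxrg had 0 counts at passage 3 in both cell types and 10 and 2 at passage 9, too few for it to enter the comparison.

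Of the enzymes, Hsd11b1 encodes 11-beta-hydroxysteroid dehydrogenase type 1, which regenerates active glucocorticoid from its inert 11-keto form inside the cell (ENSMUSG00000016194, chromosome 1, positions 193221634 to 193264075, minus strand). It had 386 counts at passage 3 and 2331 at passage 9 in DPCs, and 488 at passage 3 and 862 at passage 9 in DSCs. High-passage DPCs stood apart at 65.0 CPM, against 10.5 to 18.9 CPM in the other 3 libraries. The log2 fold change with passage was 2.62 in DPCs (interval 2.47 to 2.79, 6.17-fold) and 0.55 in DSCs (interval 0.39 to 0.72, 1.47-fold). This was the largest passage difference of the 8 genes in DPCs, although it lies within the interval of Esr1. Hsd11b1 overlaps Lamb3 and 4930570N18Rik on the opposite strand and Gm38118 on its own in GENCODE M21, and whether counting used strand was not given in the sources used here.

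Srd5a1 encodes a steroid 5-alpha-reductase, which turns testosterone into the more potent dihydrotestosterone (ENSMUSG00000021594, chromosome 13, positions 69573449 to 69611442, minus strand). It had 241 counts at passage 3 and 173 at passage 9 in DPCs, and 267 at passage 3 and 194 at passage 9 in DSCs. Scaled for depth, both passage 9 libraries, at 4.82 and 4.26 CPM, were below both passage 3 libraries, at 6.55 and 7.05 CPM. The log2 fold change was -0.44 in DPCs (interval -0.73 to -0.15) and -0.72 in DSCs (interval -1.0 to -0.45), or -0.41 in DSCs from FPKM with a pseudocount of 1. Between the cell types the log2 ratio of DPCs over DSCs was -0.10 at passage 3 (interval -0.36 to 0.15) and 0.18 at passage 9 (interval -0.12 to 0.48), so no difference was detectable at this depth. The gene overlaps Gm17108 on its own strand and Nsun2 on the other.

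Srd5a3 is a related reductase that acts chiefly on polyprenol for protein glycosylation (ENSMUSG00000029233, chromosome 5, positions 76140271 to 76155504, plus strand). DPCs held 879 counts at passage 3 and 667 at passage 9, while DSCs held 999 and 1118. Scaled for depth, the 4 libraries lay between 18.6 and 26.4 CPM. The log2 fold change was -0.36 in DPCs (interval -0.51 to -0.22) and -0.10 in DSCs (interval -0.23 to 0.02). The DSC value turned to 0.26 when taken from FPKM with a pseudocount of 0.1, and the log2 ratio of DPCs over DSCs at passage 3 went from -0.14 to 0.28, so neither has a settled direction.

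Srd5a2, the reductase that dominates in classic androgen target organs, had 0 counts in every library, as did Cyp19a1, the aromatase. Since a value of 0 leaves room for as many as 3 counts, the limit was 0.0816 CPM at passage 3 and 0.0837 at passage 9 in DPCs, and 0.0792 and 0.0659 CPM in DSCs. Both genes were named after their values were seen. Of 33 listed genes of steroid and vitamin D metabolism, 20 had enough counts to be compared. In DPCs 3 were at least 4-fold higher at passage 9, Hsd11b1, Akr1c14 and Akr1c18, against 5.58% of all genes, and 0 lower, against 4.36%. The median log2 fold change in DPCs was 0.35. In DSCs 0 passed in either direction, against 3.82% of all genes, and the median was 0.30.

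Akr1c14, a 3-alpha-hydroxysteroid dehydrogenase, had 176 counts at passage 3 and 813 at passage 9 in DPCs and 285 and 1073 in DSCs, with log2 fold changes of 2.23 and 1.64. Akr1c18, the 20-alpha-hydroxysteroid dehydrogenase that inactivates progesterone, had log2 fold changes of 3.57 in DPCs and 1.70 in DSCs. Hsd11b2, which runs opposite to Hsd11b1 by inactivating glucocorticoid, stayed at 61 counts or fewer, with log2 fold changes of 1.31 in DPCs and 1.92 in DSCs. Star, which brings cholesterol into mitochondria, had log2 fold changes of 1.93 and 0.73. Hsd3b7, an enzyme of bile acid synthesis, had log2 fold changes of 0.25 and 1.87. Hsd17b1, which makes oestradiol from oestrone, went lower in DSCs, with 17 counts at passage 3 and 28 at passage 9 in DPCs (log2 fold change 0.70, interval -0.16 to 1.72) and 73 and 22 in DSCs (-1.89, interval -2.75 to -1.29).

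Fkbp5 encodes FKBP51, an HSP90 co-chaperone that lowers hormone binding by the glucocorticoid receptor and is itself a classic target of glucocorticoids and androgens (ENSMUSG00000024222, chromosome 17, positions 28399095 to 28517524, minus strand). It had 2438 counts at passage 3 and 469 at passage 9 in DPCs, and 1313 at passage 3 and 954 at passage 9 in DSCs. Low-passage DPCs were highest at 66.3 CPM and high-passage DPCs lowest at 13.1 CPM, with both DSC libraries between them. The log2 fold change was -2.34 in DPCs (interval -2.49 to -2.20, 5.05-fold lower) and -0.72 in DSCs (interval -0.85 to -0.60, 1.65-fold lower). DPCs were above DSCs at passage 3, with a log2 ratio of 0.94, and below them at passage 9, with -0.68. Fkbp5 overlaps 2 annotated genes on its own strand and 2 on the other.

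Tsc22d3 encodes GILZ, a leucine zipper protein induced by glucocorticoids that carries part of their anti-inflammatory action (ENSMUSG00000031431, chromosome X, positions 140539528 to 140600659, minus strand). It had 1179 counts at passage 3 and 532 at passage 9 in DPCs, and 1049 at passage 3 and 988 at passage 9 in DSCs. High-passage DPCs stood lowest at 14.8 CPM, and the other 3 libraries lay between 21.7 and 32.1 CPM. The log2 fold change was -1.11 in DPCs (interval -1.26 to -0.96, 2.16-fold lower) and -0.35 in DSCs (interval -0.48 to -0.22, 1.28-fold lower), the latter -0.57 from FPKM with a pseudocount of 0.1. Fkbp5 and Tsc22d3 were thus both lower at passage 9 in both cell types, with the larger difference in DPCs. The summed immune, endothelial and Schwann cell markers were also lower at passage 9 in both, by the values given above, and their part in this was not tested.

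RefSeq promoter sequence of build GRCm38.p6 was found for 7 of the 8 members, as 10 windows of 250 bases before a transcript start, with Nr3c1 the member without an entry. Both strands were searched for the steroid receptor half-site AGAACA and the nuclear receptor half-site AGGTCA. The full glucocorticoid and oestrogen response elements, in which the same half-site is followed after 3 free bases by its reverse complement, were searched too. Promoter elements searched were the GC box, spelled GGGCGG, then the box named by its letters CCAAT, and lastly the TATA box, spelled TATAAA. A half-site can lie within its own full element, and in the stretches shown no matches overlapped. Both full elements were in 0 of the 10 windows, against 0.00913% of 32851 promoters for the glucocorticoid element and 0.0213% for the oestrogen element. The steroid receptor half-site was in 1 of 10 against 16.1% and the nuclear receptor half-site in 0 against 14.0%. The GC box was in 6 against 32.7%, the CCAAT box in 4 against 33.8% and the TATA box in 0 against 12.4%. The first Esr1 window and those of Hsd11b1 and Srd5a1 lay wholly in annotated exons, and each held a CCAAT box. The 3 stretches shown are those of the targets Fkbp5 and Tsc22d3 and of the receptor Esr1, whose passage differences are described above, without bases that lie in an annotated exon. The first is chr17:28486150-28486399 on the minus strand, within an intron of longer Fkbp5 transcripts. The second is chrX:140600660-140600772 on the minus strand, before the most distal Tsc22d3 start. The third is chr10:4709908-4710154 on the plus strand, before the second Esr1 start. They read 5′ to 3′ on the gene's strand, with the steroid receptor half-site, the GC box and the CCAAT box in capitals in either orientation.
Fkbp5: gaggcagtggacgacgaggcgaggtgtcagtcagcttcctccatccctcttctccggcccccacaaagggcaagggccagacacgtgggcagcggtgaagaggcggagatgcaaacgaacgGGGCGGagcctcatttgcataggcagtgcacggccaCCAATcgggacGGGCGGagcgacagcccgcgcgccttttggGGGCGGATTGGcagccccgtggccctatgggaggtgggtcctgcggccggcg
Tsc22d3: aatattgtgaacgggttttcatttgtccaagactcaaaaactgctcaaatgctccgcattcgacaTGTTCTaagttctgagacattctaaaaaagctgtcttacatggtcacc
Esr1: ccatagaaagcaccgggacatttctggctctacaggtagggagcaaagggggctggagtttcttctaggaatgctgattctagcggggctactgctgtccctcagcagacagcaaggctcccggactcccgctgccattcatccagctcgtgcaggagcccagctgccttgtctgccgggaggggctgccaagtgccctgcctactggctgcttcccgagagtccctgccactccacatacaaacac
Fkbp5 held 3 GC boxes and 2 CCAAT boxes, and the last GC box directly adjoins a reversed CCAAT box. The Tsc22d3 stretch held the steroid receptor half-site, which begins 185 bases before the start, and the Esr1 stretch held none of the motifs. A match is a run of letters and not a binding site, and the count tables hold 1 value per gene, so use of single starts was not measured.

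The glucocorticoid-induced genes, a list that holds Fkbp5 and Tsc22d3, did not share 1 direction. Of 26 listed, 22 were compared. In DPCs 0 passed 4-fold upwards at passage 9, against 5.58% of all genes. Downwards 3 passed it, against 4.36%, namely Fkbp5, Mt1 and Mt2, and the median log2 fold change was 0.21. At 2-fold, 6 were higher and 8 lower in DPCs, against 16.1% and 15.0% of all genes. In DSCs 0 passed 4-fold in either direction, against 3.82% of all genes, with a median of 0.16. The metallothionein Mt1, which binds zinc and responds to metals as well as glucocorticoid, had 3161 counts at passage 3 and 507 at passage 9 in DPCs and 3770 and 1622 in DSCs, with log2 fold changes of -2.60 and -1.48. Mt2 followed with -3.05 in DPCs and -1.35 in DSCs.

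Other induced genes stood higher at passage 9. Sgk1, a kinase that regulates ion transport, had 3792 counts at passage 3 and 7637 at passage 9 in DPCs and 7257 and 23864 in DSCs, with log2 fold changes of 1.05 and 1.45. Angptl4, an inhibitor of lipoprotein lipase, had 1.89 in DPCs and 1.60 in DSCs. Mertk, a receptor for the uptake of apoptotic cells, had 1.98 in DPCs and 0.02 in DSCs. Fkbp5 and Tsc22d3 thus sat among the 9 genes of the list that were lower in DPCs, beside 13 that were higher.

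**Figure D3:**
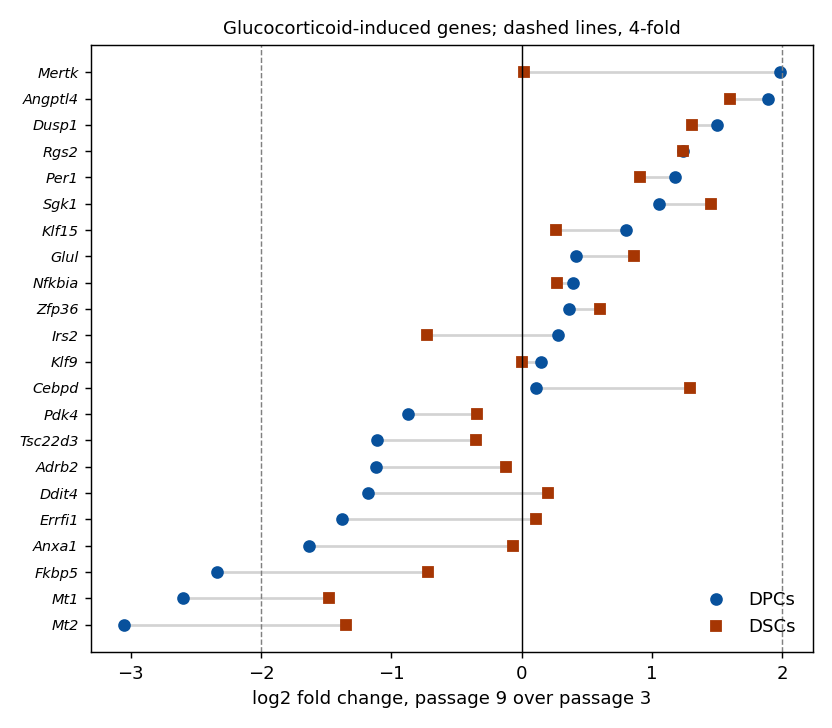
Log2 fold change in CPM of passage 9 over passage 3 (x axis) for the 22 glucocorticoid-induced genes compared (y axis), in DPCs (blue circles) and DSCs (brown squares), joined by a grey line, with dashed lines at 4-fold. In DPCs Fkbp5, Mt1 and Mt2 lie below the lower dashed line, Tsc22d3 at -1.11 lies between the line and 0, and 13 genes lie above 0.

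Androgen-responsive genes, a list that also holds Fkbp5, gave 26 genes compared of 31. In DPCs 1 was at least 4-fold higher, against 5.58% of all genes. It was the cytokine receptor gene Lifr (2.68, and -0.69 in DSCs), named after its values were seen. At least 4-fold lower were 4, against 4.36%, namely Fkbp5, Ndrg1, Aldh1a3 and Hpgd. The median log2 fold change was -0.09. In DSCs 1 was higher, Igf1, and 2 were lower, Inpp4b and Aldh1a3, against 3.82% of all genes in either direction. The median in DSCs was -0.14. Ndrg1, which is known to respond to hypoxia as well as androgen, had 1976 counts at passage 3 and 97 at passage 9 in DPCs and 2727 and 1165 in DSCs, with log2 fold changes of -4.29 and -1.49. Aldh1a3, a retinaldehyde dehydrogenase, had 1463 and 56 counts in DPCs and 1433 and 267 in DSCs, with log2 fold changes of -4.63 and -2.68. Hpgd, which degrades prostaglandins, had -3.24 and -1.09.

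Among receptor chaperones, Fkbp5 was the only one of 11 past 4-fold in DPCs, against 5.58% of all genes higher and 4.36% lower. In DSCs 0 passed, against 3.82% of all genes in either direction. The medians were -0.28 in DPCs and -0.16 in DSCs. Fkbp4, the co-chaperone FKBP52 that competes with FKBP51 for HSP90, had a log2 fold change of -0.63 in DPCs and -0.16 in DSCs. Bag1, an HSP70 cofactor, had -0.70 and -0.33, and Hspa8, the constitutive HSP70, had 0.40 and -0.33. Ppid had 0.49 and 0.36, and Hsp90ab1 had -0.30 and -0.42. Of 15 receptor coregulators 0 passed 4-fold in either cell type, against the same shares, with medians of 0.19 in DPCs and -0.04 in DSCs. In DPCs Pias1 stood highest with 1.10 (0.20 in DSCs), followed by the coactivators Ncoa2 with 0.90 (-0.01 in DSCs) and Ncoa4 with 0.89. Those named for DSCs were Ncoa4 with 0.45, Carm1, an arginine methyltransferase, with -0.45 (0.05 in DPCs), and the mediator subunit Med1 with -0.36 (-0.53 in DPCs).

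**Figure D4:**
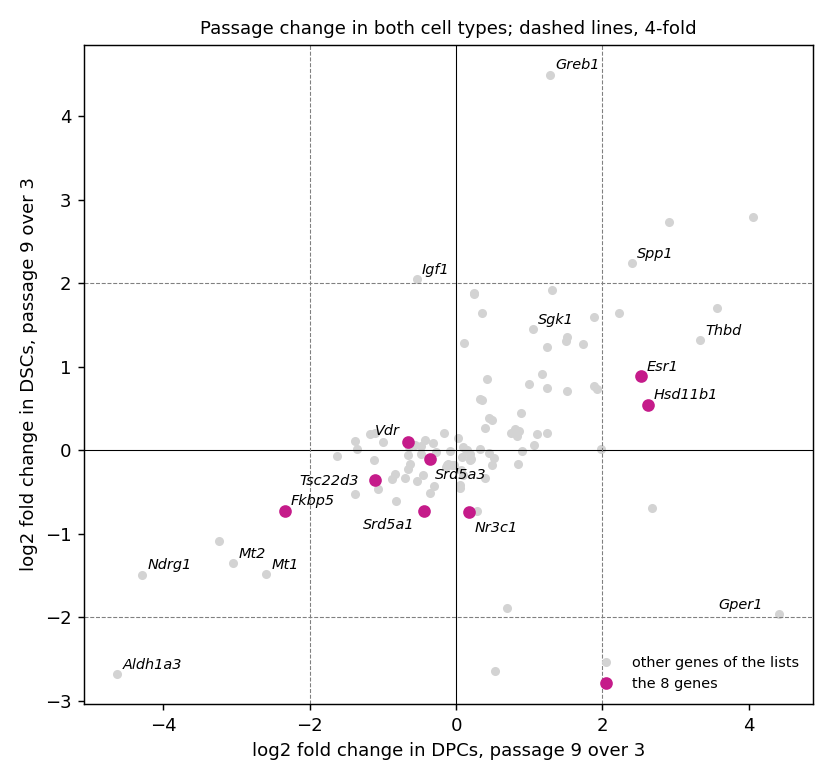
Log2 fold change in CPM of passage 9 over passage 3 in DPCs (x axis) and in DSCs (y axis) for the 8 genes (magenta) and 103 other genes of the hormone lists with more than 3 counts in every library (grey), with dashed lines at 4-fold; both axes share no library. Esr1 and Hsd11b1 lie in the upper right, Fkbp5, Tsc22d3 and Srd5a1 in the lower left, and Gper1 at 4.42 and -1.96 in the lower right.

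Between cell types at the same passage, 1 of the 8 genes differed at least 4-fold at passage 3, Esr1, against 4.3% of all genes. Esr1 was 6.49-fold lower in DPCs than in DSCs, with a log2 ratio of -2.70 and an interval of -3.62 to -2.10. That ratio was -2.05 from FPKM with a pseudocount of 0.1 and -0.58 with a pseudocount of 1. Fkbp5 came next at 0.94 (interval 0.84 to 1.03), and Hsd11b1 differed little, at -0.29 (interval -0.49 to -0.10).

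At passage 9, 0 of the 8 genes differed 4-fold between the cell types, against 6.42% of all genes, and 2 differed 2-fold, Hsd11b1 and Esr1, against 20.1%. Hsd11b1 was 3.43-fold higher in DPCs (log2 ratio 1.78, interval 1.67 to 1.89), and Esr1 remained lower in DPCs (-1.06, interval -1.40 to -0.75). Esr1 fell under 2-fold at -0.96 with scaling by total counts and at -0.49 from FPKM with a pseudocount of 1. Tsc22d3 had a log2 ratio of -0.55, or -0.19 from FPKM with a pseudocount of 0.1. These comparisons use the same 4 libraries as the passage comparisons and are not independent of them.

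The passage difference common to both cell types was tested in an additive model of cell type and passage. The spread in this model is the gap between the DPC and DSC responses, with 1 residual degree of freedom, so its p-values do not measure the spread between cultures. With edgeR's quasi-likelihood test, 0 of the 8 genes passed a Benjamini-Hochberg adjusted p of 0.05, as did 0.0% of all genes, while 2822 of 16734 genes had an unadjusted p under 0.05. Among the 8 genes the adjusted p ran from 0.241 to 0.646 in edgeR, and Fkbp5 (log2 fold change -1.53), Hsd11b1 (1.59) and Esr1 (1.71) had an unadjusted p under 0.05. DESeq2 on the same terms called 2 of the 8 genes, against 5.71% of all genes, namely Fkbp5 with an adjusted p of 0.0189 and Hsd11b1 with 0.0367.

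The genes whose pattern over the 4 libraries lay closest to the 3 most variable members were found among 12191 genes, by Euclidean distance between log2 CPM values centred on each gene's mean. Nearest to Esr1 were Nkain4 at 0.366, the Iroquois homeobox factor Irx1 at 0.405 and the IGF-binding protein Igfbp6 at 0.42, and these 3 were the only genes within 0.5. Nearest to Hsd11b1 were Ralgapa2 at 0.0925 and Lonrf2 and the homeobox factor Shox2, both at 0.125, with 41 genes within 0.5. Nearest to Fkbp5 were Gm10243 at 0.154, Gm15210 at 0.162 and the caveola protein gene Sdpr at 0.182, with 88 genes within 0.5. The pattern of Esr1, low in low-passage DPCs alone, thus had the fewest neighbours of the 3. Over 4 libraries such likeness is a description only.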

How the data were processed

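RNA sequencing of 4 libraries was analysed, 1 each of DPCs and DSCs at passages 3 and 9, grouped by their titles. The authors deposited raw counts per gene for all libraries as whole numbers, and for each library the authors' FPKM values, scaled for transcript length and depth. The labels name a TruSeq kit, while the methods describe an NEBNext kit, poly-T selection and paired-end reads. The submitters' processing notes name Bowtie 0.12.2 and builds mm8 and mm9 without a role. Of 51826 gene IDs, however, 51633 were in GENCODE M21 of GRCm38, with 94.1% at the same position, so positions are given in that build. The counting program, its use of strand and the annotation were not given in the sources used here. In low-passage DPCs 1339 genes had 2 counts, 583 had 3, 754 had 4 and 451 had 5, and every library had this excess of even counts. Intervals were therefore also computed with halved counts, and counting of both mates of a pair would double the floor given below.

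Genes with a mean of at least 10 counts were compared as differences of log2 CPM (edgeR 4.0.16, R 4.3.3, limma 3.58.1; TMM scaling, prior count 2) and called at 4-fold, the limit in the study's text. Intervals are 95%, by the exact Clopper-Pearson method applied to how a gene's reads split between 2 libraries. They compare libraries, not conditions, and like the floor of 3 counts they cover counting error only, since reads carry no molecular identifiers. The additive model was fitted by edgeR's quasi-likelihood test with Benjamini-Hochberg adjustment, with DESeq2 1.42.0 as the alternative. Fold changes were checked on simulated counts. Promoters and motifs were read from RefSeq sequences with Python 3.11.15.

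The 8 genes and the lists (receptors, metabolism, chaperones, coregulators, and genes responsive to glucocorticoid, androgen, oestrogen and vitamin D) were chosen with earlier results of these data known. Named beside the 8 genes were, in each list, up to 3 genes with the largest change in DPCs and up to 3 in DSCs, the receptors listed, and the 3 genes nearest in pattern to each of the 3 most variable members. Sts was not analysed here, and 1 further receptor was left out of the receptor list and is not reported here. Alternatives were other scalings, prior counts, count minimums and thresholds, FPKM with pseudocounts of 0.1 and 1, and FPKM without a pseudocount, which was added after seeing the data.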

Additional observations from a re-analysis of the deposited data

Results flagged for a closer look

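Given here, for 8 genes, is the log2 fold change with passage in DPCs minus that in DSCs. These are genes named above whose changes had opposite signs, with 95% counting intervals that did not span 0 in either cell type. They are not the full set, since other genes of the lists met the same rule. Among those were the glucocorticoid-induced genes Ddit4 (-1.18 in DPCs and 0.20 in DSCs), Errfi1 (-1.38 and 0.11) and Irs2 (0.28 and -0.73). All such differences rest on 1 library per group and were not tested. Nr3c1, the glucocorticoid receptor, had a difference of 0.93, from 0.18 in DPCs and -0.74 in DSCs. Vdr, the vitamin D receptor, had a difference of -0.76, from -0.66 in DPCs and 0.10 in DSCs, where the interval began at 0.00 and spanned 0 with halved counts. Among the other receptors, Gper1 had a difference of 6.38, from 4.42 and -1.96, and Rxra had -0.37, from -0.16 and 0.21. Of the androgen-responsive genes, Inpp4b, a phosphoinositide phosphatase, had a difference of 3.17, from 0.53 and -2.64, with 31 counts at passage 3 and 4 at passage 9 in DSCs. Lifr had 3.37, from 2.68 and -0.69. Igf1, the growth factor, had -2.59, from -0.54 and 2.05. The chaperone Hspa8 had 0.74, from 0.40 and -0.33.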

How the results depend on the processing

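The fold changes of the 8 genes were put through 288 checks. In 242 the recomputed value stayed within the counting interval or, with halved counts, the interval included or left out 0 as before. In 44 the value moved beyond the interval. In 2 the interval came to include 0 with halved counts (Vdr in DSCs, Srd5a3 at passage 3). As reversed counted 0, although Srd5a3 changed sign from FPKM in DSCs and at passage 3. Of the moved values, 42 came from FPKM and 2 from scaling by total counts. Scalings moved a fold change by at most 0.0997 on the log2 scale, under total counts. The number past 4-fold with passage in DPCs went from 3 to 2 with FPKM and a pseudocount of 0.1 or 1, without Esr1. The number of genes past 4-fold between cell types at passage 3 went from 1 to 0 with FPKM and a pseudocount of 1. That at passage 9 went from 0 to 2 with a 2-fold limit. In the additive model DESeq2 called 2 genes, Fkbp5 and Hsd11b1, where edgeR called 0, and over all genes it called 955 against 0; the cause was not tested. Beyond the additive model, which has cell type as a block, no paired analysis was possible. Each group is 1 library and the labels carry no replicate numbers. For the same reason no library could be left out. Depth limited Esr1 most, with 18 counts in low-passage DPCs.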

Other observations

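Genes that respond to oestrogen and to vitamin D were also counted. Of 12 oestrogen-responsive genes, 9 had enough counts to be compared. In DPCs 1 was at least 4-fold higher at passage 9, Rerg, against 5.58% of all genes, and 0 were lower, against 4.36%, with a median log2 fold change of 0.33, or 0.26 without Pgr. In DSCs 3 were at least 4-fold higher, Pgr, Greb1 and Rerg, and 0 were lower, against 3.82% of all genes in either direction. The median in DSCs was 0.02. Of these, Pgr entered the comparison only through high-passage DSCs, where it was high, so its call followed from the count minimum. Greb1, an oestrogen receptor cofactor, had 20 counts at passage 3 and 50 at passage 9 in DPCs and 38 and 1084 in DSCs, with log2 fold changes of 1.28 and 4.50. Rerg, a small GTPase, had 12 and 224 counts in DPCs and 4 and 47 in DSCs. Ccnd1, cyclin D1, had 20280 and 7695 counts in DPCs and 24377 and 29642 in DSCs, with -1.36 and 0.02. Esr1 itself was highest in high-passage DSCs, at 6.46 CPM, as were Greb1 at 23.8 CPM and Pgr at 5.88 CPM. The log2 fold change of Esr1 with passage was 2.53 in DPCs and 0.89 in DSCs. From FPKM with a pseudocount of 1 it was 0.43 and 0.34.

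Of 12 vitamin D-responsive genes, 6 had enough counts to be compared. In DPCs 3 were at least 4-fold higher at passage 9, Spp1, S100g and Thbd, against the same 5.58% of all genes. The median log2 fold change was 2.14. In DSCs 2 were higher, Spp1 and S100g, against 3.82% of all genes in either direction, with a median of 1.05. In both cell types 0 were lower, against 4.36% of all genes in DPCs. Spp1, the matrix protein osteopontin, had 39849 counts at passage 3 and 204612 at passage 9 in DPCs and 71137 and 404313 in DSCs, with log2 fold changes of 2.40 and 2.24. Thbd, thrombomodulin, had 1716 and 17008 counts in DPCs and 1958 and 5897 in DSCs, with 3.34 and 1.32. Vdr itself had -0.66 in DPCs and 0.10 in DSCs. The glucocorticoid target Zbtb16 had 0 counts in every library and was named after its values were seen.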
